A study of Danio rerio with 9 samples.

Results

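Low oxygen changes how a cell handles glucose, and the 6 zebrafish genes described here act along that route: igfbp1a, egln3, hif1al, slc16a3b, hk2 and pdk2b. Their RNA was measured in whole zebrafish, 5 days after fertilization, with 9 single-colour Agilent arrays. The groups were larvae pretreated with tacrine at 50 µM for 1 h and then given neomycin at 200 µM for 1 h (tacrine_neomycin), larvae given neomycin at 200 µM for 1 h (neomycin), and larvae given neither compound (control), with 3 arrays each. Tacrine inhibits acetylcholinesterase, and neomycin is an antibiotic toxic to the hair cells of the ear and lateral line. Per the labels, 1% DMSO took the place of tacrine in both other groups, and no DMSO level is stated for larvae given tacrine, so a difference in DMSO cannot be told apart from tacrine. No group received tacrine alone. The labels state independent experiments for the arrays of a group but not how many larvae each array holds.

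All probes whose RefSeq accession belongs to 1 of the 6 genes were taken, which gave 17 of the 43603 probes on the array, for 6 of the 12900 genes it names. There were 3 probes for igfbp1a, 2 for egln3, 4 for hif1al, 4 for slc16a3b, 1 for hk2 and 3 for pdk2b. All 17 passed the filter for testing, a signal well above background on 3 or more arrays, as did 31671 probes in all. The genes were selected on their differences between these 3 groups on these arrays, so their differences are given below as a description. Their calls in the fit across all probes are counted further below, but are not an independent test. Below, the probes of a gene are numbered from its brightest.

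Cells sense oxygen through prolyl hydroxylases of the EGLN family, which mark the alpha subunits of hypoxia-inducible factor (HIF) for destruction by the ubiquitin ligase that contains VHL. When oxygen is short, the subunits persist, pair with ARNT and switch on genes for glucose uptake, glycolysis and lactate export. Pyruvate dehydrogenase kinases inhibit pyruvate dehydrogenase, which limits the use of pyruvate by the mitochondria. Several of these genes also respond to signals other than oxygen, such as insulin, glucocorticoids and fasting. hif1al encodes an alpha subunit also named Hif-3alpha, egln3 a hydroxylase that HIF itself induces, igfbp1a a secreted binding protein of insulin-like growth factors that is induced by hypoxia in zebrafish embryos, slc16a3b a lactate exporter (MCT4b), hk2 the hexokinase that begins glycolysis, and pdk2b a pyruvate dehydrogenase kinase.

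The arrays lay on 3 slides, each with 1 array per group, and the replicate number in the labels was the number of the slide. The 75th percentile of the signal, to which each array was scaled, was 151 to 225 with both compounds, 141 to 169 with neomycin and 105 to 136 in controls. Arrays of each group always had the same place on the slide, so place and group cannot be told apart. All 45 measured markers of muscle, liver, blood, exocrine pancreas, neurons and intestine were well above background on all 9 arrays. The summed level of the 8 pancreas markers was 907 to 1027 with both compounds, 1048 to 1197 with neomycin and 1353 to 1635 in controls, in units of the 75th percentile. That of the 12 muscle markers was 1283 to 1536, 1248 to 1598 and 1564 to 1980 in the same groups. That of the 7 liver markers was 327 to 355, 302 to 348 and 340 to 451. The 6 neuron markers summed to 51.0 to 52.1, 51.0 to 54.6 and 53.2 to 57.4. For the 5 intestine markers the sums were 51.8 to 58.0, 56.7 to 74.4 and 60.9 to 92.0. The 7 blood markers summed to 364 to 451, 325 to 370 and 422 to 531. With both compounds the sum ranged higher than with neomycin, as did its members. Against control it ranged lower, unlike most of its members. The sums of the other tissues with both compounds ranged lower than in controls too. Against neomycin 7 of 7 differences were positive with both compounds, and gata1a (1.12, adjusted p = 0.0449) and slc4a1a (0.92, adjusted p = 0.0433) rose, each on 1 of 2 probes. With the slide as a block neither passed (adjusted p = 0.0586 and 0.0667). They lost the call in 7 and 8 of 9 fits that left out 1 array. Against control 5 of 7 were positive, with a median of 0.25, and gata1a rose (0.96, adjusted p = 0.0496). That call was lost with the slide as a block (adjusted p = 0.0544) and in 8 of 9 such fits. Of the other markers, apoa4a of intestine rose with both compounds against neomycin (1.59, adjusted p = 0.0452), on 1 of 2 probes. The other intestine markers did not pass and had mixed signs: anpepb.1 differed by 0.91, vil1 by 0.04, fabp2 by -0.34 and cdx1b by -0.76. The pancreas markers prss1 (-0.63, adjusted p = 0.0392) and ela2 (-0.71, adjusted p = 0.0468) fell with both compounds against control. apoa4a, prss1 and ela2 lost the call in 6, 8 and 9 of 9 such fits. With the slide as a block apoa4a and prss1 did not pass (adjusted p = 0.0571 and 0.0538). The part that these levels have in the results below was not tested. In whole larvae, fewer cells of a type and less RNA per cell cannot be told apart.

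**Figure D1:**
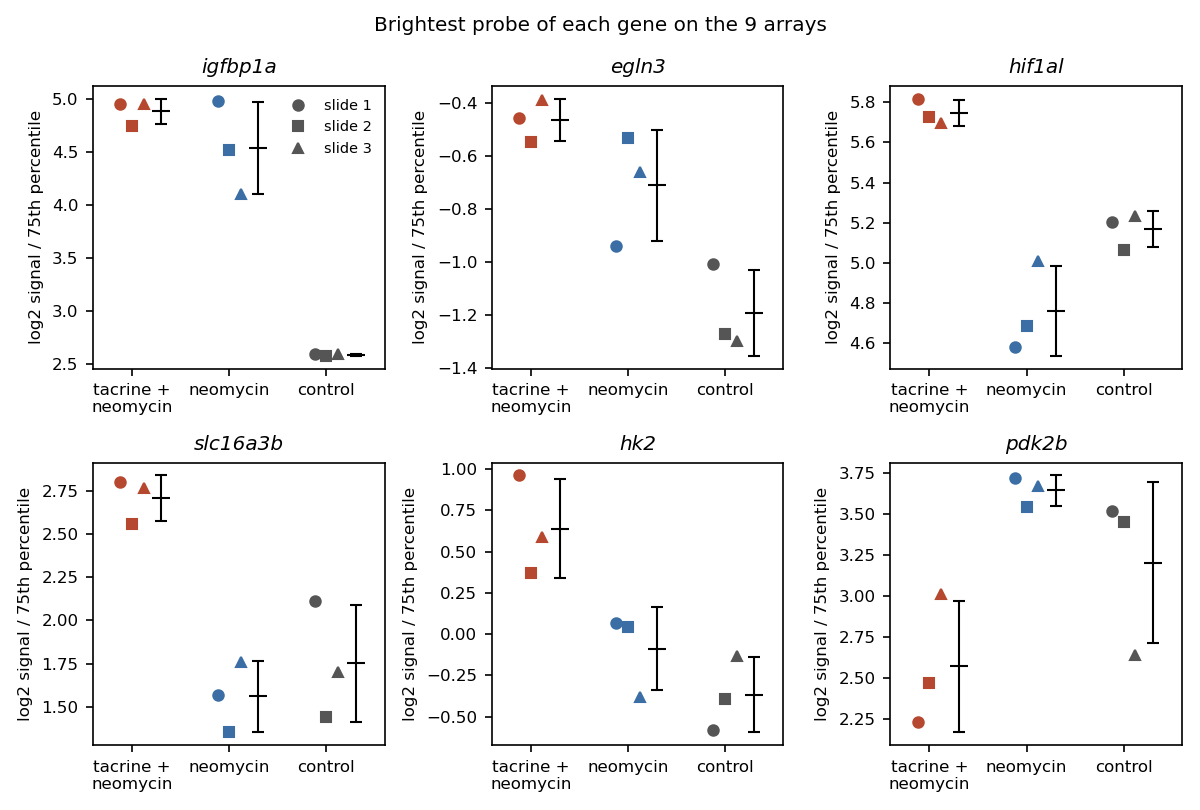
Level of the brightest probe of each gene on the 9 arrays, as log2 of the signal over the array's 75th percentile (vertical axis), by group. Each point is 1 array and its shape is the slide; the bar beside them is the mean with its SD (n = 3). igfbp1a lies high in both treated groups, whereas hif1al, slc16a3b and hk2 are highest in larvae given both compounds and pdk2b is highest with neomycin.

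Of the 6 genes, igfbp1a differed most from controls. On its brightest probe the level was 4.95, 4.75 and 4.95 with both compounds, 4.98, 4.52 and 4.11 with neomycin alone and 2.59, 2.57 and 2.59 in controls, as log2 of the signal over the 75th percentile. Every treated array lay far above every control, and the treated groups overlapped. The 3 controls were nearly equal on this probe (SD 0.009), but not on probes 2 and 3 (SD 0.23 and 0.29). The log2 difference from controls was 2.30 with both compounds (SE 0.21, n = 3 per group, 4.93-fold) and 1.95 with neomycin (SE 0.21, 3.87-fold). The 3 probes agreed closely: they gave 2.27 to 2.35 with both compounds against controls and 1.94 to 1.95 with neomycin against controls.

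Between both compounds and neomycin alone, igfbp1a differed by 0.35 (SE 0.21). The slides did not give 1 answer here, with differences of -0.03, 0.23 and 0.85. The value was 0.57 without neomycin array 1 and 0.13 without neomycin array 3. The third neomycin array held the lowest treated level of igfbp1a, and on all 3 probes.

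Its duplicate igfbp1b, which encodes a second protein of the same kind, had levels of 4.48, 4.23 and 4.58 with both compounds, 4.53, 4.25 and 4.47 with neomycin and 4.53, 4.90 and 4.36 in controls. These overlap throughout, with a difference from controls of -0.17 with both compounds (SE 0.18, adjusted p = 0.639) and -0.18 with neomycin (SE 0.18, adjusted p = 0.867).

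The oxygen sensor egln3 was also higher in both treated groups, by less. Its brightest probe was at -0.46, -0.55 and -0.39 with both compounds, -0.94, -0.53 and -0.66 with neomycin and -1.01, -1.27 and -1.30 in controls. Here too both treated groups lay wholly above the controls and overlapped with each other. The difference from controls was 0.73 with both compounds (SE 0.15, 1.66-fold) and 0.48 with neomycin (SE 0.15, 1.40-fold), and that between both compounds and neomycin was 0.25 (SE 0.15).

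The neomycin difference of egln3 was uneven, at 0.07, 0.74 and 0.64 on slides 1, 2 and 3. The second, dimmer probe gave 1.03 with both compounds against controls and 0.75 with neomycin against controls (SE 0.19 each), and was well above background on 2 of the 3 control arrays. egln3 depended on the background correction. With normexp correction and quantile normalization its brightest probe differed by 0.34 with both compounds and 0.27 with neomycin from controls, and by 0.07 between the treated groups. With normexp and 75th percentile scaling it differed by -0.01 with both compounds from controls, where the median of all probes was -0.41. The second probe, with both compounds and with neomycin, differed from controls by 0.19 and 0.10 under normexp with quantile normalization, and by -0.68 in both under normexp with 75th percentile scaling.

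Of the other hydroxylases, egln1b, a main oxygen sensor in most cells, stood at 0.75, 1.03 and 0.96 with both compounds, 1.15, 0.96 and 1.11 with neomycin and 1.00, 0.62 and 0.64 in controls, and did not pass in any comparison. Its difference was 0.15 with both compounds (SE 0.15, adjusted p = 0.608) and 0.32 with neomycin (SE 0.15, adjusted p = 0.615), each against controls. egln1a and egln2 were not analysed here.

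The HIF subunit gene hif1al was low with neomycin and high with both compounds. On its brightest probe it was at 5.82, 5.73 and 5.70 with both compounds, 4.58, 4.69 and 5.01 with neomycin and 5.20, 5.07 and 5.23 in controls. The 3 groups did not overlap: larvae given both compounds were highest, controls lay between, and neomycin larvae were lowest. The difference between both compounds and neomycin was 0.99 (SE 0.15, 1.98-fold), between neomycin and control -0.41 (SE 0.15, 1.33-fold lower), and between both compounds and control 0.58 (SE 0.15, 1.49-fold).

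All 4 probes of hif1al put larvae given both compounds wholly above neomycin larvae, with differences of 0.89 to 1.27. The sizes agreed less under other corrections of the background. With normexp and quantile normalization probes 1 to 4 differed by 0.99, 0.35, 0.25 and 0.12, and the authors' deposited matrix gave 1.06, 0.55 and 0.35 for probes 1 to 3. Against control larvae the probes disagreed, and none passed the threshold of the fit for either treated group. Neomycin was lower on all 4, by a log2 difference of -0.84 to -0.41, and without overlap on 2. Larvae given both compounds differed from controls by 0.06 to 0.58, without overlap on 2 probes, and probe 2, which gave 0.06, had levels of -0.79, -0.89 and -0.99 with both compounds and -0.89, -0.99 and -0.96 in controls. The dimmest probe was well above background on 3 arrays with both compounds, 1 with neomycin and 2 in controls. With normexp correction and 75th percentile scaling the brightest probe differed by 0.61 between neomycin and control, where the median of all probes was -0.35.

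On the slides the brightest hif1al probe differed by 1.24, 1.04 and 0.69 between both compounds and neomycin, and by -0.62, -0.38 and -0.22 between neomycin and control. Slide 3 held the smallest value in both.

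A second gene of this kind, hif1al2, was well above background on all 3 arrays with both compounds, on none with neomycin and on no control array. Its 1 probe was at least 1.24-fold higher with both compounds than with neomycin, a difference that did not pass (adjusted p = 0.223). This is a bound: on neomycin arrays the probe was set to the dimmest signal that passed as well above background there. Against controls it was called higher (measured difference 1.51, SE 0.36, adjusted p = 0.0425), but that floor left no fold. The probe met the filter for testing only through the 3 arrays of the group in which it was high. The call therefore gives no support for a rise. With the slide as a block that call was lost (adjusted p = 0.0506), and it was lost in 7 of 9 fits that left out 1 array. With normexp and quantile normalization the difference was 0.10 and did not pass.

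**Figure D2:**
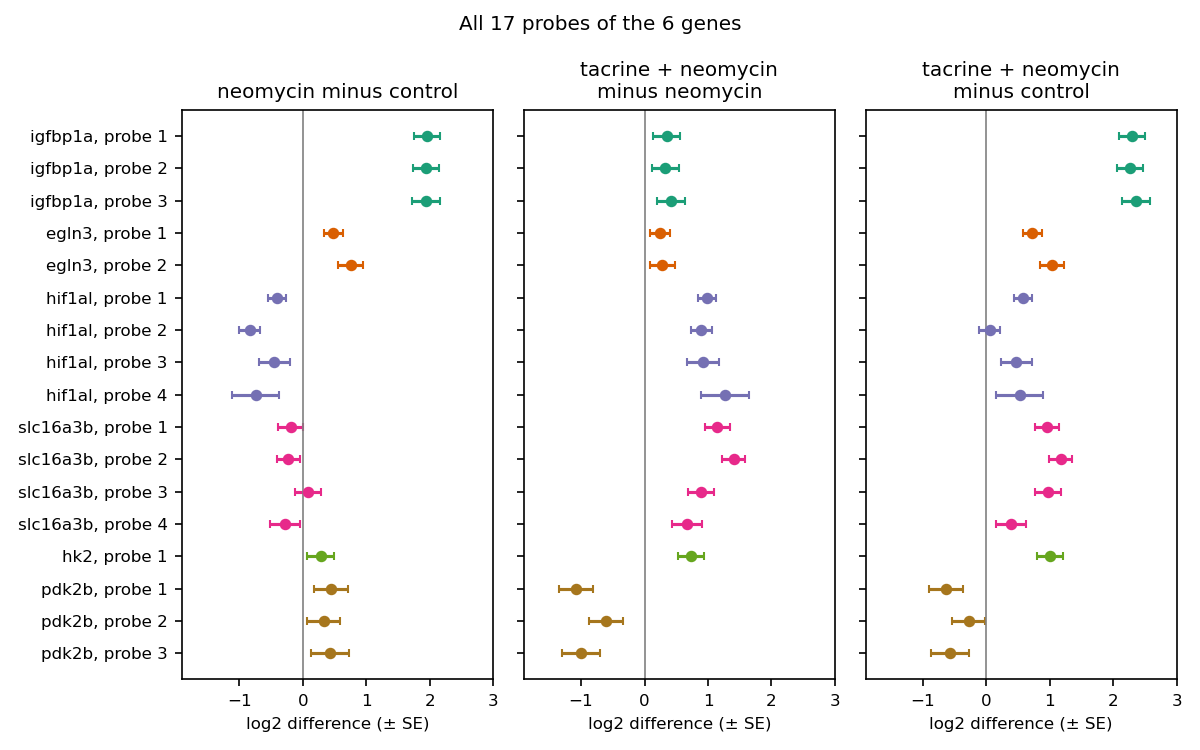
Log2 difference (horizontal axis) of each of the 17 probes in the 3 comparisons, with the moderated standard error (n = 3 arrays per group). Probes of a gene are numbered from the brightest and share a colour. The probes of igfbp1a lie close together in every panel, and those of hif1al, slc16a3b and pdk2b fall on 1 side of 0, gene by gene, for both compounds against neomycin.

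The lactate exporter slc16a3b was highest where tacrine was given first, and its probes differed little, and with mixed sign, between neomycin and control. The brightest probe was at 2.80, 2.56 and 2.77 with both compounds, 1.57, 1.35 and 1.76 with neomycin and 2.11, 1.44 and 1.70 in controls. Larvae given both compounds lay wholly above both other groups, which overlapped. The difference was 1.15 between both compounds and neomycin (SE 0.19, 2.21-fold), 0.96 between both compounds and control (SE 0.19, 1.94-fold) and -0.19 between neomycin and control (SE 0.19).

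The 4 probes of slc16a3b spanned 0.68 to 1.40 for both compounds against neomycin and 0.39 to 1.17 for both compounds against control, and on each of them the groups did not overlap. With normexp and quantile normalization they gave 0.95, 0.79, 0.39 and 0.13 for both compounds against neomycin, from the brightest to the dimmest. For neomycin against control they spanned -0.28 to 0.09, and the groups overlapped on each. Slides gave 1.23, 1.20 and 1.01 for both compounds against neomycin on the brightest probe. The highest control, on slide 1, lay above all neomycin arrays: without it the difference between neomycin and control was -0.01, and without control array 2 it was -0.35. With normexp and 75th percentile scaling it was 0.32, where the median of all probes was -0.35.

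Among the other transporters of lactate and pyruvate, slc16a1b was at -2.19, -2.38 and -2.09 with both compounds, -2.48, -2.71 and -2.79 with neomycin and -2.81, -2.70 and -2.55 in controls on its brighter probe. Its differences of 0.44 between both compounds and neomycin (SE 0.15, adjusted p = 0.162) and 0.47 between both compounds and control (SE 0.15, adjusted p = 0.102) did not pass, and its second probe gave 0.18 against control. The closer relative slc16a3a was too dim to be tested.

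The hexokinase gene hk2 rested on 1 probe. It was at 0.96, 0.37 and 0.59 with both compounds, 0.07, 0.04 and -0.38 with neomycin and -0.58, -0.39 and -0.13 in controls. Larvae given both compounds lay wholly above both other groups, while neomycin and control larvae overlapped. The difference was 1.01 between both compounds and control (SE 0.21, 2.01-fold), 0.73 between both compounds and neomycin (SE 0.21, 1.66-fold) and 0.28 between neomycin and control (SE 0.21).

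Slide 1 gave the largest hk2 difference, with 1.54 on slide 1, 0.76 on slide 2 and 0.72 on slide 3 for both compounds against control. For neomycin against control the slides gave 0.65, 0.43 and -0.25. With normexp correction and quantile normalization the difference between both compounds and control was 0.72. The ubiquitous hexokinase hk1 was at 2.03, 2.30 and 2.35 with both compounds, 1.95, 2.04 and 1.94 with neomycin and 1.82, 1.97 and 2.10 in controls. Its difference of 0.26 between both compounds and control (SE 0.14, adjusted p = 0.307) did not pass. gck, the hexokinase of liver, was not analysed here.

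The kinase gene pdk2b stood apart from the other 5 in that it was lowest in larvae given both compounds. Its brightest probe was at 2.23, 2.47 and 3.01 with both compounds, 3.72, 3.54 and 3.67 with neomycin and 3.52, 3.45 and 2.64 in controls. Neomycin larvae lay wholly above both other groups, which overlapped through the third control. The difference between both compounds and neomycin was -1.07 (SE 0.27, 2.10-fold lower), between neomycin and control 0.44 (SE 0.27) and between both compounds and control -0.63 (SE 0.27).

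For pdk2b all 3 probes were lower with both compounds than with neomycin, by a log2 difference of -1.07 to -0.61, and without overlap on 2 of them. The slides agreed in sign for this comparison, with -1.49, -1.07 and -0.66. They did not for both compounds against control, where slides 1 and 2 gave -1.29 and -0.98 and slide 3 gave 0.38. The third control lay low on all 3 probes, and without it the difference was 0.16 between neomycin and control and -0.91 between both compounds and control. With normexp and 75th percentile scaling the brightest probe differed by 0.18 between both compounds and control, where the median of all probes was -0.41. None of the differences of pdk2b passed the threshold of the fit.

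Of the other kinases of pyruvate dehydrogenase, pdk4, the kinase of fasting, ranged widely with both compounds, at -1.22, -0.32 and 0.49, against -0.02, -0.05 and -0.14 with neomycin and -1.26, -0.12 and -0.72 in controls. Its difference between both compounds and neomycin was -0.28 (SE 0.41, adjusted p = 0.777) and between neomycin and control 0.63 (SE 0.41, adjusted p = 0.738). pdk3b differed by -0.63 between both compounds and neomycin (SE 0.31, adjusted p = 0.332). pdk1, pdk2a and pdk3a were not analysed here.

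**Figure D3:**
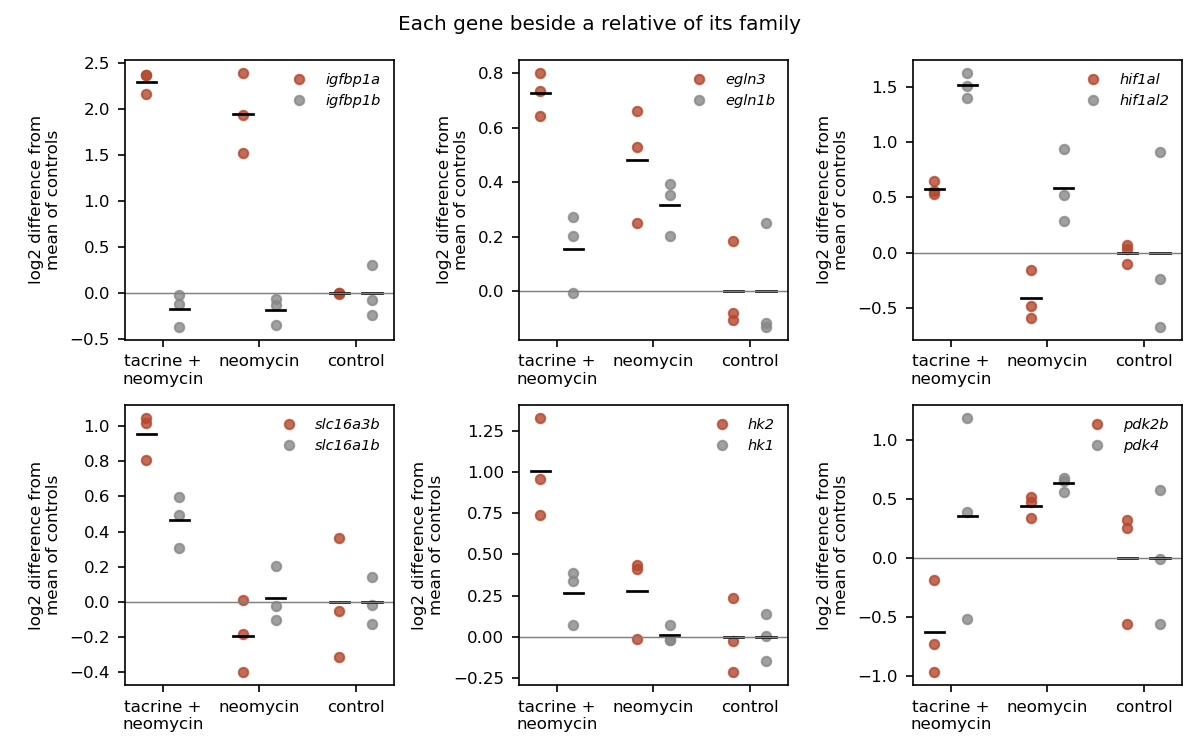
Brightest probe of each of the 6 genes (red) and of a relative in its family (grey) on the 9 arrays, as log2 difference from the mean of the 3 controls (vertical axis); each point is 1 array and black bars are group means. The igfbp1a points of both treated groups lie 1.52 or more above the controls' mean, whereas igfbp1b overlaps between the groups. Values of hif1al2 in neomycin and control larvae were not well above background.

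In all, the levels ran in 3 orders. igfbp1a and egln3 were high in both treated groups, and those groups overlapped. slc16a3b and hk2 were high with both compounds, and neomycin and control overlapped. hif1al and pdk2b had their extremes in the treated groups: both compounds were highest for hif1al and lowest by mean for pdk2b, and neomycin was lowest for hif1al and highest for pdk2b. By the fit across all probes (adjusted p under 0.05), the brightest probe was called higher for 1 of the 6 genes with neomycin against control (igfbp1a), 2 with both compounds against neomycin (hif1al and slc16a3b) and 4 with both compounds against control (igfbp1a, egln3, slc16a3b and hk2), and lower for none. Over the brightest probes of all 11326 genes tested, 0.115%, 1.91% and 3.36% were called higher and 0.0441%, 0.856% and 2.3% lower in the same comparisons. Of the 17 probes, 3, 4 and 9 were called, all higher. Over all tested probes 0.0853%, 1.8% and 3.15% were higher and 0.0316%, 0.878% and 2.77% lower, together 0.117%, 2.67% and 5.92%. The groups did not overlap on 8, 11 and 12 of the 17 probes, and on 13.2%, 25.6% and 28.9% of all tested probes. These counts come from the comparisons that chose the genes. Each pair of comparisons shares the arrays of 1 group.

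Fits that left out each of the 9 arrays in turn are described here for the brightest probes. They reuse the arrays that chose the genes, so a kept call is no independent support. In these fits igfbp1a kept its call against controls in 9 of 9 with both compounds and in 6 of 9 with neomycin. hif1al kept its call for both compounds against neomycin in 8 of 9 fits and slc16a3b in 5 of 9. With all arrays, 2 of the 4 probes of hif1al and 2 of the 4 of slc16a3b were called in that comparison. Against controls with both compounds, hk2 kept it in 5 of 9 fits, slc16a3b in 4 of 9 and egln3 in 4 of 9.

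The genes whose brightest probe followed each of the 6 most closely over the 9 arrays were found among 10571 other named genes, by Pearson's correlation, given as a description. The points share arrays and groups. For igfbp1a these were the prostaglandin synthase ptgs2b (r = 0.987), the chemokine ccl34a.4 (r = 0.982) and the prostacyclin synthase ptgis (r = 0.979). They differed between neomycin and control by 2.14, 2.69 and 0.98. For egln3 they were stxbp6l (r = 0.966), the transcription factor gene isl2a (r = 0.952) and plek2 (r = 0.940).

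For hif1al the closest were the kinase genes sgk2b (r = 0.977) and stk35 (r = 0.972) and, between them, ankrd9 (r = 0.973). In that order of naming they differed by -0.62, -1.06 and -1.04 between neomycin and control. For slc16a3b they were the keratin gene krt18a.1 (r = 0.983), arl4ab (r = 0.976) and itm2cb (r = 0.975). For hk2 they were arhgef2a (r = 0.989), fstb, which encodes a follistatin (r = 0.970), and the interferon factor irf9 (r = 0.966). For pdk2b they were tmem150b (r = 0.956), dync1li1 (r = 0.944) and the cathepsin gene ctsl.1 (r = 0.942). Among the 6 genes themselves, r was 0.917 between hif1al and slc16a3b, 0.846 between igfbp1a and egln3 and -0.839 between hif1al and pdk2b.

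The other genes of the pathway were counted in 6 lists with 163 genes, of which 118 were tested, each by its brightest probe. With neomycin against control none of the 118 passed in the limma fit in either direction. Of them 12 had an unadjusted p under 0.05 in that fit, where 8.18% of all tested genes did. The median difference was -0.08, against -0.02 over all probes. Under normexp with 75th percentile scaling these medians were 0.28 and -0.35, and for both compounds against control 0.56 and -0.41. With both compounds against neomycin 9 rose and none fell (7.63% rose, against 1.91% of all genes), with a median of 0.10 against -0.02. With both compounds against control 8 rose and 1 fell (6.78% and 0.847%, against 3.36% and 2.3%), with a median of 0.01 against -0.05. The 8 include hif1al2, whose probe met the filter only through the arrays with both compounds. The rises of lepa, lepb, bhlhe40, bhlhe41 and ddit4 in these data were known when the lists were written, and without these 5 genes 4 of 113 rose in each of the last 2 comparisons (3.54%).

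**Figure D4:**
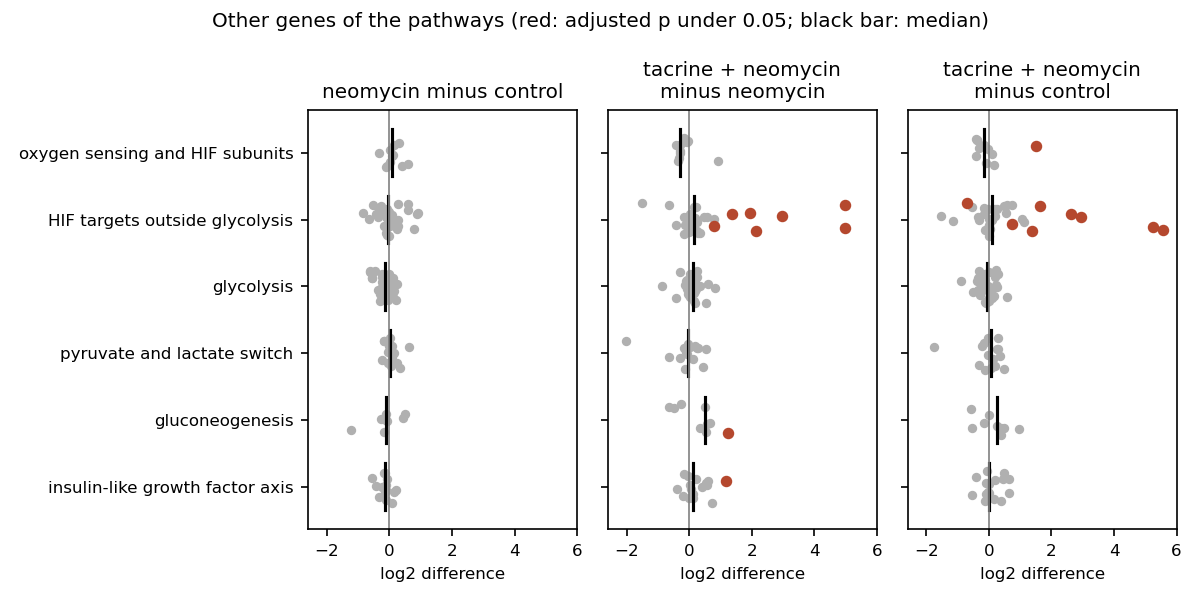
Log2 difference (horizontal axis) of the 118 other pathway genes in the 3 comparisons, by list, 1 point per gene; vertical position within a list is only to separate points. Red points passed at an adjusted p under 0.05 and black bars are list medians. No point passed for neomycin against control, and in the other panels most red points belong to HIF targets outside glycolysis. That list includes lepa, lepb, bhlhe40, bhlhe41 and ddit4, whose rises were known when it was written.

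Targets of HIF outside glycolysis held most of the calls. Of 33, 7 rose with both compounds against neomycin (21.2%, against 1.91% of all tested genes). Against control 7 rose and 1 fell (21.2% and 3.03%, against 3.36% and 2.3%). Without the 5 genes named above, 2 of 28 rose against neomycin (7.14%), and 3 rose and 1 fell against control (10.7% and 3.57%). The list then held 2 of the 4 pathway genes that rose against neomycin and 3 of the 4 against control. In the 3 comparisons 5, 12 and 14 of the 33 had an unadjusted p under 0.05 in the limma fit. Without the 5 genes known to rise, these were 4, 7 and 9 of 28. The shares of all tested genes were 8.18%, 17.4% and 22.0%. The kinase gene pim1 was at 3.89, 3.45 and 3.60 with both compounds, 2.45, 2.32 and 2.09 with neomycin and 1.97, 2.02 and 2.08 in controls. Larvae given both compounds lay wholly above both other groups. It rose by 1.36 with both compounds against neomycin (SE 0.16, 2.57-fold, adjusted p = 0.00438) and by 1.62 against control (SE 0.16, 3.08-fold, adjusted p = 0.000965), on both of its probes.

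The mitochondrial protein gene higd1a rose with both compounds against control by 1.38 (SE 0.27, adjusted p = 0.0232), with levels of -0.32, -0.45 and -0.28 against -1.10, -2.26 and -1.83. insig2, a brake on sterol synthesis, fell by 0.69 on the log2 scale in the same comparison (SE 0.14, adjusted p = 0.0247). Both lost the call in 5 of 9 fits that left out 1 array. Of the genes known beforehand to rise, the leptin gene lepa rose by 4.98 with both compounds against neomycin (SE 0.27, adjusted p = 0.000167) and bhlhe41, a clock repressor, by 2.98 (SE 0.28, adjusted p = 0.00176). lepb rose by 4.98 (SE 0.65, adjusted p = 0.0067), a value that rests on 2 neomycin arrays not well above background and 1 that was, and ddit4, a brake on growth signalling, by 1.96 (SE 0.29, adjusted p = 0.0114). bhlhe40 rose by 0.78 (SE 0.16, adjusted p = 0.0386, and 0.062 once the slide was a block) and lost the call in 8 of 9 fits that left out 1 array. With both compounds against control, lepa (5.25, SE 0.27, adjusted p = 4.46e-05), lepb (at least 14.4-fold, adjusted p = 0.00213), bhlhe41 (2.63, SE 0.28, adjusted p = 0.00158) and bhlhe40 (0.74, SE 0.16, adjusted p = 0.0293) rose as well, and ddit4 differed by 1.12 (SE 0.29, adjusted p = 0.0559). The sizes for the dim genes rest on the background correction. With normexp and quantile normalization the differences from neomycin and from control were 2.11 and 2.13 for lepa, 1.030 and 1.096 for lepb, 0.68 and 0.67 for bhlhe41 and 0.44 and 0.39 for bhlhe40. With normexp and 75th percentile scaling lepb differed by 1.16 and 0.37. In that setting no pathway gene was called higher against neomycin, and pim1 alone was called higher against control. higd1a differed from control by 0.68 and insig2 by -0.17 with normexp and quantile normalization, and insig2 no longer passed.

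vegfaa, the growth factor of blood vessels and a well known HIF target, was at -1.10, -1.19 and -1.16 with both compounds, -1.49, -2.07 and -1.60 with neomycin and -1.68, -1.40 and -1.82 in controls. Larvae given both compounds lay wholly above both other groups, but the differences of 0.57 against neomycin (SE 0.18, adjusted p = 0.146) and 0.48 against control (SE 0.18, adjusted p = 0.156) did not pass. The smallest p values in this list for neomycin against control belonged to tfr1b, a transferrin receptor (0.91, SE 0.21, adjusted p = 0.195), and ankrd37 (-0.64, SE 0.16, adjusted p = 0.261). plod2, a collagen-modifying enzyme, differed by -1.51 between both compounds and neomycin (SE 0.48, adjusted p = 0.146).

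None of the 34 tested genes of glycolysis passed in any comparison: 3 had an unadjusted p under 0.05 for neomycin against control, and 5 in each comparison of both compounds. Of all tested genes, by their brightest probes, 8.18% were under 0.05 for neomycin against control. The share was 17.4% for both compounds against neomycin and 22.0% for both compounds against control. Their median difference was -0.13 for neomycin against control, and for both compounds 0.12 against neomycin and -0.06 against control. pgk1, which makes ATP in glycolysis, differed by 0.04 between both compounds and neomycin (SE 0.16, adjusted p = 0.922). The smallest p values belonged to the aldolase gene aldoab (-0.54, SE 0.14, adjusted p = 0.265) and to pfkfb4a (0.25, SE 0.13, adjusted p = 0.672) for neomycin against control. With both compounds against neomycin they belonged to pfkfb1 (-0.88, SE 0.25, adjusted p = 0.104) and the phosphofructokinase gene pfkmb (0.60, SE 0.21, adjusted p = 0.183), which also led for both compounds against control (-0.88, adjusted p = 0.0723, and 0.59, adjusted p = 0.139). The glucose transporter gene slc2a1a was too dim to be tested.

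Nor did any of the 15 tested genes at the branch of pyruvate and lactate pass, with 0, 2 and 1 at an unadjusted p under 0.05 in the 3 comparisons. The shares of all tested genes were 8.18%, 17.4% and 22.0%, in the same order. ldha, which turns pyruvate into lactate, was at 4.31, 4.64 and 4.40 with both compounds, 3.95, 3.86 and 3.96 with neomycin and 4.34, 4.13 and 4.02 in controls. Larvae given both compounds lay wholly above neomycin larvae, by 0.53 on both probes (SE 0.15 on the brighter, adjusted p = 0.0983), and the difference between neomycin and control was -0.24 (SE 0.15, adjusted p = 0.711). pdha1b, a subunit of pyruvate dehydrogenase, had 1 array with both compounds at -6.14, against -0.36 and -0.85 on the other 2, and its difference from control was -1.75 (SE 1.23, adjusted p = 0.447).

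Of the 11 tested genes of oxygen sensing and HIF subunits, none passed with neomycin against control or with both compounds against neomycin. With both compounds against control hif1al2 alone passed, as given above, and its probe met the filter only through the arrays of that group. The median difference of the 11 genes was 0.07, -0.28 and -0.15 in the 3 comparisons, against -0.008, -0.03 and -0.05 over all tested genes. With both compounds against neomycin 1 of 11 differences was positive. An unadjusted p under 0.05 in the limma fit was found for 1, 3 and 3 of the 11. The shares of all tested genes were 8.18%, 17.4% and 22.0%. epas1b, which encodes the HIF-2 alpha subunit, differed by -0.35 between neomycin and control (SE 0.18, adjusted p = 0.633) and by -0.42 between both compounds and control (SE 0.18, adjusted p = 0.195). vhl differed by 0.42 between neomycin and control (SE 0.16, adjusted p = 0.45), and cited2, an inhibitor of HIF, by -0.41 between both compounds and neomycin (SE 0.13, adjusted p = 0.135) and -0.38 between both compounds and control (SE 0.13, adjusted p = 0.119). hif1aa, hif1ab and epas1a were not analysed here.

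For gluconeogenesis 9 genes were tested, with median differences of -0.10, 0.49 and 0.27 in the 3 comparisons. An unadjusted p under 0.05 in the limma fit was found for 2, 6 and 4 of them. The shares of all tested genes were 8.18%, 17.4% and 22.0%, in the same order. Among the 9, g6pc1a.2, a glucose-6-phosphatase that releases glucose from liver, rose with both compounds against neomycin by 1.25 (SE 0.27, 2.38-fold, adjusted p = 0.0459), on 1 of 3 probes. It was at 3.86, 3.86 and 3.90 with both compounds, 2.29, 2.25 and 3.33 with neomycin and 3.82, 3.73 and 4.05 in controls, and only the neomycin arrays lay apart. Its difference between neomycin and control was -1.24 (SE 0.27, adjusted p = 0.173). The call was lost in 8 of 9 fits that left out 1 array. g6pc1a.1 differed by 0.97 between both compounds and control (SE 0.26, adjusted p = 0.0617). fbp1b differed by 0.49 between neomycin and control (SE 0.19, adjusted p = 0.457) and -0.66 between both compounds and neomycin (SE 0.19, adjusted p = 0.108), and fbp1a by -0.59 between both compounds and control (SE 0.16, adjusted p = 0.0634, and 0.0325 once the slide was a block).

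In the axis of insulin-like growth factors, 1 of 16 tested genes passed. In the 3 comparisons 1, 4 and 3 of the 16 had an unadjusted p under 0.05 in the limma fit. The shares of all tested genes were 8.18%, 17.4% and 22.0%. igf1, the growth factor that igfbp1a binds, rose with both compounds against neomycin by 1.19 (SE 0.21, 2.29-fold, adjusted p = 0.0239), with levels of -4.15, -3.61 and -3.87 against -4.98, -4.80 and -5.42. It was well above background on 1 of 3 neomycin arrays and 1 of 3 controls, and the call was lost in 4 of 9 fits that left out 1 array. With normexp and quantile normalization the difference was 0.10 and did not pass. For neomycin against control igf1 differed by -0.56 (SE 0.21, adjusted p = 0.45), and igfbp3 by 0.20 (SE 0.13, adjusted p = 0.726). igf2b differed by 0.50 between both compounds and control (SE 0.13, adjusted p = 0.0614, and 0.0425 once the slide was a block), and igfbp5a by -0.54 (SE 0.17, adjusted p = 0.102).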

How the data were processed

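The authors deposited 1 scanner file per array, holding linear intensity values: per the file headers, a processed signal background-corrected by Feature Extraction 10.1.1.1 (8.0 per the submitters' processing notes), and median spot and background signals. Other deposited columns flag, with 0 or 1, outlier spots and those well above background. The authors' deposited matrix of log2 values for 25265 probes, whose method is not stated, served as an alternative.

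Spots flagged as outliers (3 to 9 per array) were left out, and spots of a probe were averaged on the log2 scale after each array's 75th percentile was subtracted. No spot was saturated. Probes were named through RefSeq accessions matched to the GRCz12tu assembly: 25173 had 1 symbol and 18430 none. The array design refers to an older build, so no positions are given, and no sequences were used, so cross-hybridization between paralogs was not tested.

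All 9 arrays were fitted by lmFit and eBayes of limma 3.58.1, under R 4.3.3 (eBayes with no trend, two-sided, with 6 residual degrees of freedom and 3.12 from the prior). p values were adjusted by Benjamini-Hochberg over 31671 probes well above background on at least 3 arrays, and called under 0.05. They measure the spread between 3 arrays per group, whose number limits the precision. The fit was tested on simulated data. The members and lists were chosen with earlier results of these data known. Named were all called list genes (1 is not reported here), per list and comparison the gene with the smallest p in each direction, a fixed set of relatives and well known hypoxia genes, and the 3 most similar genes per member. Alternatives were normexp (offset 50), quantile normalization, the authors' matrix, 2 filters, the mean over a gene's probes, the slide as a block and leaving out each array.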

Additional observations from a re-analysis of the deposited data

How the results depend on the processing

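Over all 17 probes, 3 comparisons and the alternatives, 785 of 804 differences of the 6 genes kept their sign. Part of this count was fixed in advance, so it does not measure stability. The slide as a block and the 2 filters leave a difference unchanged, as does leaving out an array of the group not compared. Normexp with 75th percentile scaling moved the median of all probes to -0.35 for neomycin against control, -0.08 for both compounds against neomycin and -0.41 for both compounds against control. It turned called values of egln3 probe 1 (-0.011), egln3 probe 2 (-0.68), slc16a3b probe 3 (-0.0015), bhlhe41 (-0.093) and hif1al2 (-0.87) for both compounds against control and of igf1 (-0.013) for both compounds against neomycin, and the cause was not tested. It left 0 pathway genes called higher against neomycin, 1 higher and 0 lower against control, and 0, 12 and 67 of all probes called in the 3 comparisons. Normexp with quantile normalization gave 7, 524 and 1097, against 37, 847 and 1876 as reported. For both compounds against control, calls split into 66 higher and 1 lower under the first and 714 and 383 under the second, against 999 and 877; against neomycin, 11 and 1 under the first, against 569 and 278.

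The replicate number marks the slide, and same-numbered arrays deviated together in most pairs but not all (r from -0.0834 to 0.261). For pairs of different number r ran from -0.296 to 0.127. With the slide as a replicate block, 22 probes were called for neomycin against control. For both compounds against control the block gave 1189 probes higher and 1085 lower, against 999 and 877 as reported. With the block, 2 pathway genes were lower with both compounds against control. That count was also 2 with quantile normalization and in the authors' matrix and 3 among probes well above background on all 9 arrays, against 1 as reported. The matrix gave 1 pathway gene lower with both compounds against neomycin and 18 probes for neomycin against control. That comparison gave 20 with no filter and 73 with the strict filter; no filter gave 476 for both compounds against neomycin. Without lepa, lepb, bhlhe40, bhlhe41 and ddit4, left out after the data were seen, 4 pathway genes were higher in both comparisons of both compounds.

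Leaving out 1 array gave 11 to 67, 271 to 976 and 788 to 1850 probes called. For pathway genes it gave 0 to 1 higher and 0 to 1 lower with neomycin against control, 6 to 8 higher and 0 to 1 lower with both compounds against neomycin, and 5 to 10 higher and 0 to 1 lower with both compounds against control.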
